A study of Danio rerio with 7 samples.

Results

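The genes described here encode the subunits of Mediator and Integrator, 45 of the 32105 genes in the deposited count table. They were picked by symbol: med or ints followed by a number, in any letter case, with paralog letters allowed. This choice was made with earlier results of these data known. The rule gave 29 Mediator genes and 16 Integrator genes, and all 45 had enough counts to be tested. The symbols MED13 and MED19 are each carried by 2 Ensembl IDs, which are given with their ID. MED8 was not analysed here, and Med26, listed under its older symbol crsp7, falls outside the rule.

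Poly(A) RNA came from cells positive for gata1, the gene of a red cell transcription factor, isolated from zebrafish embryos 40 hours after fertilization. There were 3 libraries of ddx41 mutants (numbered 2, 3 and 4 in the titles) and 4 of their siblings (numbered 1, 3, 4 and 5). The mutated gene codes for an RNA helicase of the DEAD-box family. The labels give neither the ddx41 allele nor the genotype of the siblings. Nor do they tie libraries to clutches, and p-values speak only of the spread among these 7 libraries, part of which may be technical.

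Mediator is the large complex that carries signals from DNA-bound transcription factors to RNA polymerase II. Its head and middle modules touch the polymerase, its tail meets activators, and a detachable kinase module, built on Med12 and Med13, can hold the polymerase off. In mammals Med1 binds GATA1 in red cell precursors. Integrator also travels with RNA polymerase II, but acts on the transcript. Its cleavage module cuts the 3′ ends of small nuclear RNAs (snRNAs) and of stalled transcripts, and its phosphatase module brings protein phosphatase 2A (PP2A) to the polymerase. Work in zebrafish has tied the loss of Integrator subunits to faulty blood formation.

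Libraries held 11814324 to 14363255 counts. Over genes, Spearman's rho was 0.939 to 0.940 for pairs of mutants, 0.941 to 0.945 for pairs of siblings and 0.917 to 0.931 for pairs of 1 mutant and 1 sibling. The 15 of 17 erythroid markers found in the table summed to 48090 to 99384 CPM in mutants (CPM, counts scaled to library size with TMM factors) and 102197 to 149276 CPM in siblings. Globin genes weigh most in that sum, and they did not move together. The hbae3 gene averaged 22950 CPM in mutants and 46136 CPM in siblings. The hbae1.3 gene averaged 5563 CPM in mutants and 21287 CPM in siblings. Lower on average in mutants was also hbae1.1, at 1210 CPM against 2824 CPM in siblings, but it did not pass (edgeR adjusted p = 0.0751). By contrast, hbbe3 averaged 25033 CPM in mutants and 22409 CPM in siblings and did not pass. Of the 16 tested erythroid IDs 12 did not pass, 3 fell (hbae3, hbae1.3 and klf17) and 1 rose (SLC4A1, ENSDARG00000024560). That SLC4A1 ID averaged 195.4 CPM in mutants and 51.8 CPM in siblings. The other SLC4A1 ID (ENSDARG00000012881) had far more counts, at 7970 CPM in mutants and 10997 CPM in siblings. It was lower in mutants and did not pass (edgeR adjusted p = 0.203). Of this gene pair the marker list held only slc4a1a, and the symbols do not say which of these IDs it is. Markers of other cells were also present. Beside the marker counts above and below, 8.87% of all tested genes passed as higher in mutants and 7.69% as lower. The 10 of 11 matched macrophage and leukocyte markers summed to 527.2 to 999.4 CPM in mutants and 903.3 to 1688 CPM in siblings, with 4 of 14 tested IDs lower and 1, SPI1, higher in mutants. The 6 of 9 muscle markers summed to 42.0 to 45.9 CPM in mutants and 53.0 to 96.9 CPM in siblings, with 4 of 8 IDs lower. The 6 of 7 endothelial markers summed to 92.9 to 192.7 CPM in mutants and 39.7 to 69.2 CPM in siblings, with 1 of 6 higher. That gene was stab2, at 63.7 CPM in mutants and 7.33 CPM in siblings. All 6 had a log2 fold change above 0, and 4 had an unadjusted edgeR p under 0.05. The 7 epidermis markers summed to 780.3 to 1476 CPM in mutants and 315.0 to 1125 CPM in siblings, with 2 of 7 higher (krt8 and epcam). The summed levels of neutrophil, thrombocyte, neural and yolk or liver markers overlapped between the groups, as did the macrophage and leukocyte and the epidermis sums. Single markers still passed the test. Of 5 tested thrombocyte IDs f5 was higher (180.0 CPM in mutants, 34.6 CPM in siblings) and gp9 lower (39.1 and 122.7 CPM). Of 5 yolk or liver IDs fabp10a was higher (1.87 and 0.147 CPM) and apoa2 lower (1.12 and 5.98 CPM). Of 9 tested neural IDs FABP7 (ENSDARG00000007697) was lower, and neither neutrophil ID passed. The thrombocyte marker itga2b had too few counts to be tested. It was at 0 in the 3 mutants and in sibling replicates 1 and 3, and at 0.84 and 0.07 CPM in sibling replicates 4 and 5. For THBS1, 1 of 2 IDs was at 0 in every library. The part of these shifts in the results below was not tested, and in sorted bulk samples fewer cells of a type cannot be told apart from less RNA per cell. The ddx41 transcript itself was left out of the analysis, so the labels were not checked against it.

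The question put to these libraries was which subunit transcripts differ in erythroid cells of the ddx41 mutant. Of the 45 genes, 3 Mediator genes rose (MED22, MED10 and MED24), 3 Integrator genes fell (INTS6L, INTS2 and ints6), and 39 did not pass edgeR's quasi-likelihood test at a Benjamini-Hochberg adjusted p of 0.05. The 6 called genes are 13.3% of the members, against 16.6% of all 18565 tested genes (3073 genes), so the members as a whole were called at about the background rate. Without ddx41 mutant replicate 2, 4 of the 45 members were called, and the calls over all genes were 1014 higher and 874 lower, against 1646 and 1427 with all libraries. The median log2 fold change was -0.09 over the 45 members and 0.04 over all tested genes.

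Of 29 Mediator genes 3 rose (10.3%) and 0 fell, and of 16 Integrator genes 0 rose and 3 fell (18.8%). Over all tested genes 8.87% were called higher and 7.69% lower, so the share of Mediator genes that rose was near the background. Fold changes had mixed signs in both complexes, 14 above and 15 below 0 in Mediator and 7 above and 9 below in Integrator. The counts of 0 were also 0 with DESeq2 and with limma-voom after adjustment. At an unadjusted edgeR p of 0.05 they were 0 in the fit of all libraries, but 3 Mediator genes were lower with upper-quartile scaling, 3 without mutant replicate 2, 4 without mutant replicate 3 and 2 without sibling replicate 5, and 2 Integrator genes were higher with total-count scaling. With limma-voom 1 Mediator gene was lower and 1 Integrator gene higher at that unadjusted p. Also at that p, 1 Mediator gene was lower without the low-count filter, and without each of mutant replicate 4, sibling replicate 1 and sibling replicate 3. The same held with the replicate block. Without mutant replicate 4 or sibling replicate 4, 1 Integrator gene was higher. Whether the complexes differ from each other was not tested. The median log2 fold change was -0.06 for Mediator and -0.22 for Integrator. Both medians moved with single libraries. The Mediator median was 0.10 when ddx41 mutant replicate 4 was left out and -0.18 when mutant replicate 2 was. It was 0.027, -0.019 and -0.11 when siblings 1, 4 and 5 were left out in turn. The Integrator median was -0.11 and -0.12 when mutant replicates 3 and 4 were left out in turn, and -0.083 when sibling replicate 4 was.

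Summed over their genes, Mediator transcripts took 980.6, 1040 and 785.9 CPM in mutant replicates 2, 3 and 4, against 930.6, 984.2, 1075 and 877.1 CPM in sibling replicates 1, 3, 4 and 5. Integrator transcripts took 326.5, 377.9 and 312.7 CPM in the mutants and 383.6, 401.1, 420.9 and 374.7 CPM in the siblings. The Mediator sums of the groups overlapped widely. For Integrator 2 mutant libraries lay below all siblings, and mutant replicate 3 lay just above sibling replicate 5.

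**Figure D1:**
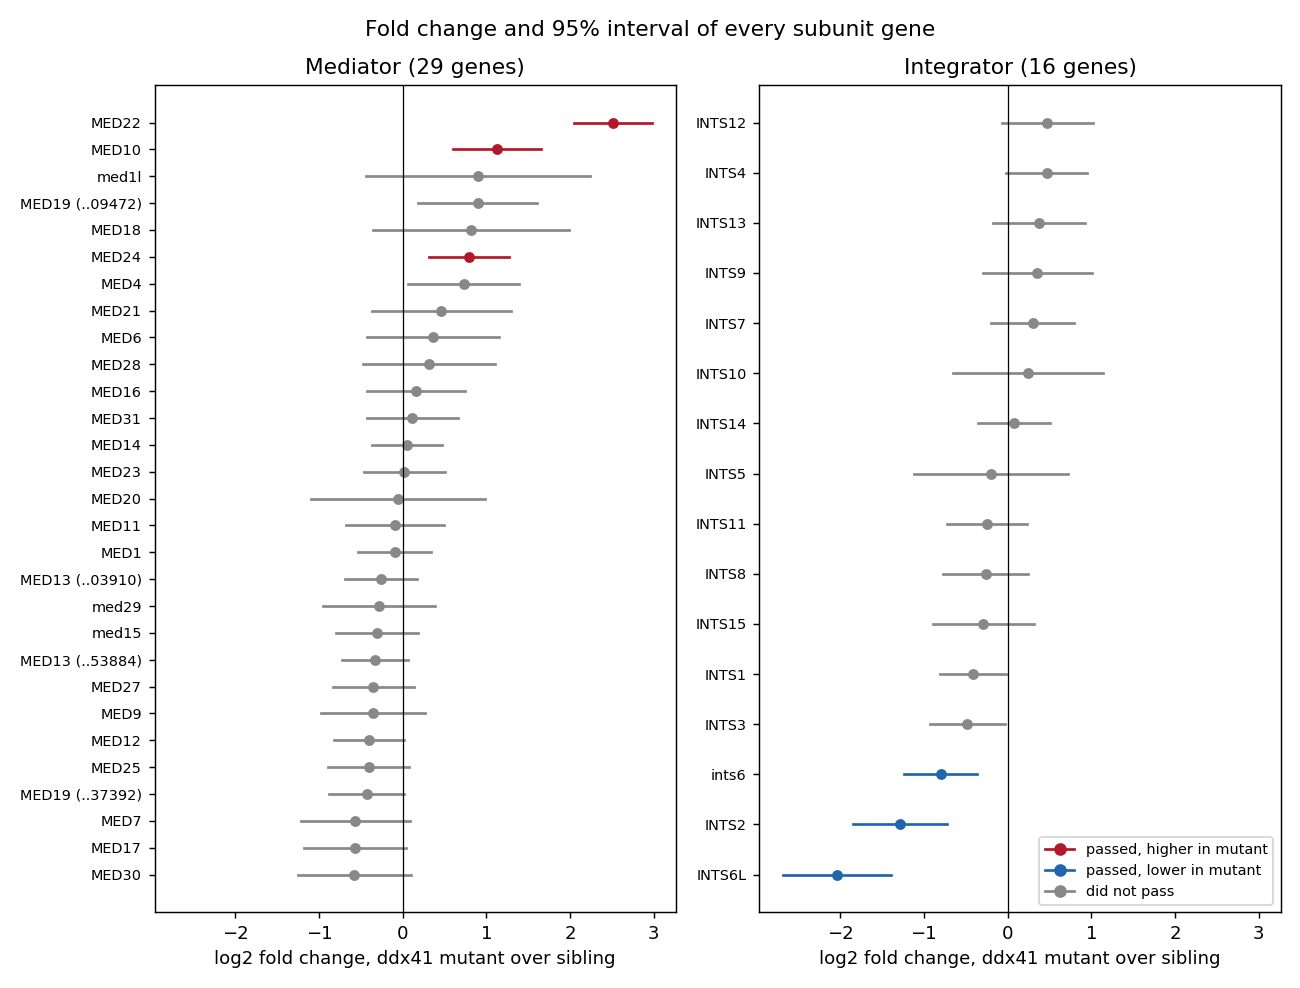
Log2 fold change of ddx41 mutants (n = 3) over siblings (n = 4) for each of the 29 Mediator and 16 Integrator genes, with the 95% interval of the edgeR fit as a line; colour marks the genes that passed the test. The 3 Mediator genes that passed lie to the right of 0 and the 3 Integrator genes that passed lie to the left, while most intervals cross 0.

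MED22 (ENSDARG00000014148), a subunit of the Mediator head, had the largest log2 fold change of the 45 in the fit of all libraries. It had 41.7, 60.3 and 45.6 CPM in mutant replicates 2, 3 and 4, against 9.28, 7.52, 8.44 and 9.28 CPM in sibling replicates 1, 3, 4 and 5. The lowest mutant was thus far above the highest sibling, and the siblings were tightly grouped. The rise was 5.70-fold (95% interval 4.12 to 7.88), a log2 fold change of 2.51 with an SE of 0.22 and an edgeR adjusted p of 3e-06. The other 5 head genes did not pass the test. They were MED6, MED11, MED17, MED18 and MED20, with log2 fold changes from -0.57 (MED17) to 0.81 (MED18). MED17, the central head subunit that contacts the polymerase, had a mean of 12.6 CPM in mutants and 18.8 CPM in siblings.

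The middle module reaches along the polymerase. Of its 10 genes MED10 rose and 9 did not pass. MED10 (ENSDARG00000070623) had 45.7, 34.4 and 36.9 CPM in mutants and 18.8, 25.0, 14.6 and 12.99 CPM in siblings, and the groups did not overlap. The rise was 2.19-fold (95% interval 1.52 to 3.14; edgeR adjusted p = 0.00573).

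The paralogous MED19 genes, also of the middle module, differed in the sign of their fold change, and neither passed. MED19 (ENSDARG00000009472) had 9.998, 14.2 and 8.57 CPM in mutants and 5.61, 3.80, 7.90 and 6.14 CPM in siblings, a log2 fold change of 0.90 with an SE of 0.33 (edgeR adjusted p = 0.0813). Every mutant lay above every sibling there. MED19 (ENSDARG00000037392) averaged 34.6 ± 5.45 CPM in mutants (SD, n = 3) and 46.5 ± 8.44 CPM in siblings (SD, n = 4), a log2 fold change of -0.43. Reads could be divided between such paralogs by the counting, and with the pair summed to 1 row no further member passed. MED4, which pairs with Med9 in the middle module, averaged 13.4 ± 4.44 CPM in mutants (SD, n = 3) and 8.06 ± 1.95 CPM in siblings (SD, n = 4), with an edgeR adjusted p of 0.128. MED1, the subunit that binds GATA1 in mammals, averaged 80.3 ± 18.3 CPM in mutants (SD, n = 3) and 85.8 ± 13.2 CPM in siblings (SD, n = 4). Its log2 fold change of -0.10 had a 95% interval of -0.53 to 0.34, which excludes a 2-fold change in either direction. Its paralog med1l was among the least counted members, at 2.21 CPM in mutants and 1.18 CPM in siblings on average.

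In the tail, which activators contact, MED24 rose and 4 genes (med15, MED16, MED23 and MED25) did not pass. MED24 (ENSDARG00000099431), a tail subunit known in zebrafish for its need in gut neuron formation, had 41.2, 44.4 and 36.4 CPM in mutants and 23.9, 20.4, 31.6 and 17.9 CPM in siblings. The groups did not overlap, with sibling replicate 4 nearest to the mutants. The rise was 1.73-fold (95% interval 1.25 to 2.42; edgeR adjusted p = 0.025). That call was lost without ddx41 mutant replicate 2 or 3 or without sibling replicate 1, 3 or 5 (edgeR adjusted p 0.08, 0.0823, 0.0537, 0.0794 and 0.0767), and over all alternatives but the replicate block the adjusted p ran from 0.0114 to 0.0823. The gene was higher in mutants in each case.

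MED14, the scaffold that joins head, middle and tail, averaged 91.3 ± 8.92 CPM in mutants (SD, n = 3) and 88.3 ± 16.3 CPM in siblings (SD, n = 4). Its log2 fold change of 0.05 had a 95% interval of -0.37 to 0.46. The 4 genes that link head and tail, MED27, MED28, med29 and MED30, had log2 fold changes from -0.58 to 0.31 and did not pass. Med26, under the symbol crsp7, averaged 36.3 CPM in mutants and 43.5 CPM in siblings (edgeR adjusted p = 0.406).

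All 3 genes of the kinase module that the rule finds were lower on average in mutants, and 0 of them passed the test, also at an unadjusted p of 0.05 in the fit of all libraries. Over all tested genes 16.6% passed. MED12 averaged 111.6 ± 22.8 CPM in mutants (SD, n = 3) and 147.3 ± 16.1 CPM in siblings (SD, n = 4), with an edgeR adjusted p of 0.184. MED13 (ENSDARG00000053884) averaged 112.8 ± 19.4 CPM in mutants and 141.8 ± 10.2 CPM in siblings, and MED13 (ENSDARG00000003910) averaged 76.7 ± 19.1 CPM in mutants and 91.8 ± 11.9 CPM in siblings. Their kinase partners were measured as a separate list. CDK19 (ENSDARG00000043858), a kinase that can take the place of Cdk8, had 2.08, 2.92 and 4.38 CPM in mutants, against 9.76, 7.75, 7.75 and 11.1 CPM in siblings. It was lower by 2.89-fold, with groups that did not overlap and an edgeR adjusted p of 0.0107. That p was 0.0508 without mutant replicate 2, and over all alternatives but the replicate block it ran from 0.000378 to 0.0508. With the replicate block CDK19 was not called. CDK8 averaged 37.9 CPM in mutants and 46.9 CPM in siblings and CCNC, the cyclin C gene, averaged 23.4 CPM in mutants and 23.6 CPM in siblings. Neither passed.

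**Figure D2:**
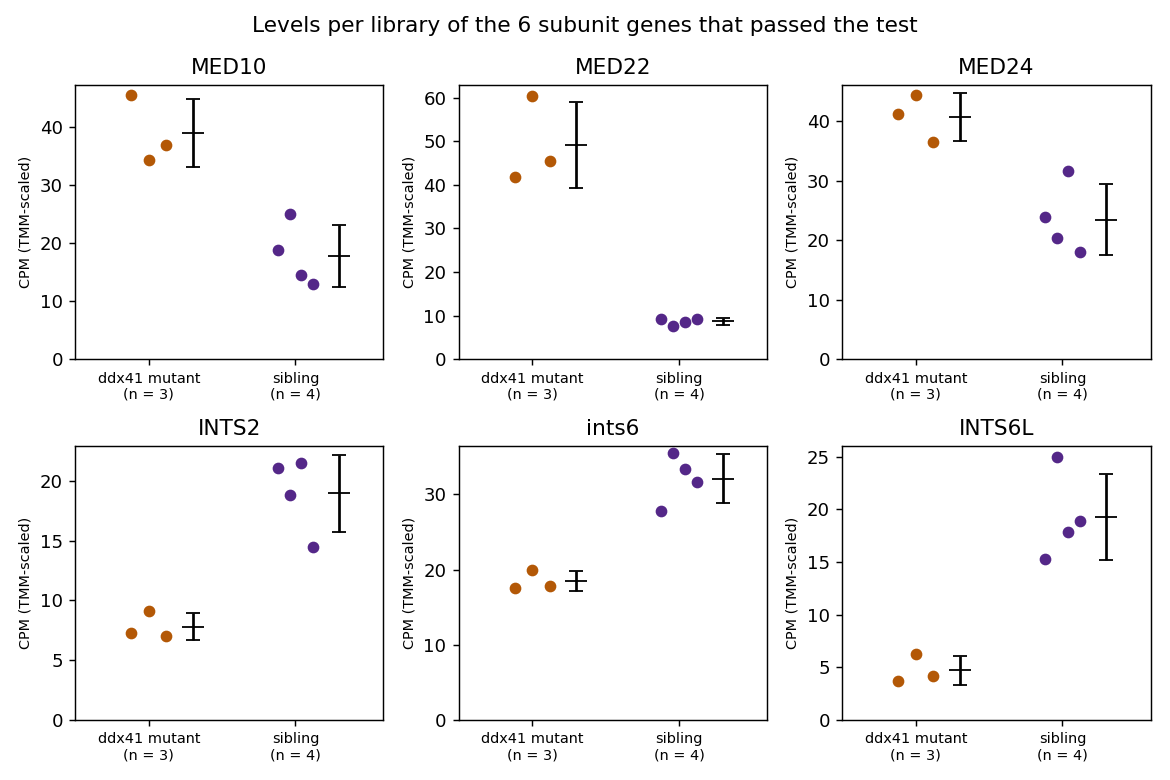
CPM with TMM scaling in each library for the 6 genes that passed the test, ddx41 mutants (n = 3) left of siblings (n = 4); points are libraries, and the bar beside them is the mean with its SD. The groups do not overlap in any panel, and the gap is widest for MED22, at 41.7 to 60.3 CPM in mutants and 7.52 to 9.28 CPM in siblings.

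Both genes listed here as the Integrator phosphatase arm, ints6 and INTS6L, fell, where 7.69% of all tested genes did. The neighbouring INTS5 and INTS8 were listed apart and did not pass (edgeR adjusted p = 0.809 and 0.502). Ints6 and its paralog Ints6l bind PP2A and so place it on the polymerase, where it removes phosphates from the polymerase tail and from pausing factors. INTS6L (ENSDARG00000017931) had 3.67, 6.22 and 4.19 CPM in mutant replicates 2, 3 and 4, against 15.2, 25.0, 17.9 and 18.9 CPM in sibling replicates 1, 3, 4 and 5. The highest mutant lay well below the lowest sibling. It was 4.10-fold lower (95% interval 2.62 to 6.41), a log2 fold change of -2.03 with an SE of 0.30 and an edgeR adjusted p of 0.000395.

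The paralog ints6 (ENSDARG00000013025) had 17.6, 20.0 and 17.8 CPM in mutants and 27.8, 35.6, 33.4 and 31.6 CPM in siblings. The groups were again apart. It was 1.74-fold lower (95% interval 1.28 to 2.36; edgeR adjusted p = 0.0155), and the edgeR adjusted p was 0.0666 without mutant replicate 2, in a range of 0.00294 to 0.0666 over the alternatives but the replicate block.

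In the backbone, which carries the other modules, INTS2 fell and INTS1, INTS7 and INTS12 did not pass. INTS2 (ENSDARG00000069085) had 7.25, 9.14 and 7.05 CPM in mutants and 21.1, 18.8, 21.5 and 14.5 CPM in siblings. No mutant reached the level of any sibling. It was 2.43-fold lower (95% interval 1.64 to 3.59; edgeR adjusted p = 0.00415). INTS1, on which the backbone is built, averaged 60.8 ± 10.6 CPM in mutants (SD, n = 3) and 81.1 ± 4.08 CPM in siblings (SD, n = 4), with groups that did not overlap and an edgeR adjusted p of 0.144. INTS3, which Integrator shares with the single-strand DNA binding SOSS complex, averaged 33.4 ± 5.14 CPM in mutants (SD, n = 3) and 46.6 ± 8.44 CPM in siblings (SD, n = 4), with an edgeR adjusted p of 0.138.

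In the cleavage module, which cuts the nascent snRNA, 0 of 3 genes passed, where 16.6% of all tested genes did. INTS11, the endonuclease, averaged 18.8 ± 3.55 CPM in mutants (SD, n = 3) and 22.2 ± 1.71 CPM in siblings (SD, n = 4), with a log2 fold change of -0.24 and a 95% interval of -0.72 to 0.24. INTS9, its inactive partner, averaged 9.51 ± 0.365 CPM in mutants and 7.42 ± 1.75 CPM in siblings, with groups that did not overlap. INTS4, which holds the INTS9 and INTS11 pair, averaged 36.2 ± 4.55 CPM in mutants and 26.2 ± 6.79 CPM in siblings (edgeR adjusted p = 0.184). The arm genes INTS10, INTS13, INTS14 and INTS15, which help recruit the complex, had log2 fold changes from -0.29 to 0.38. INTS14 was even across libraries, with 22.7 ± 0.871 CPM in mutants (SD, n = 3) and 21.6 ± 0.602 CPM in siblings (SD, n = 4). INTS5 and INTS8, the shoulder between backbone and phosphatase, had log2 fold changes of -0.19 and -0.26. None of these 9 genes passed the test, and 0 of the 9 had an unadjusted edgeR p under 0.05 in the fit of all libraries, nor did DESeq2 or limma-voom call any. With 16.6% of all tested genes called, a count of 0 among so few genes does not set them apart.

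**Figure D3:**
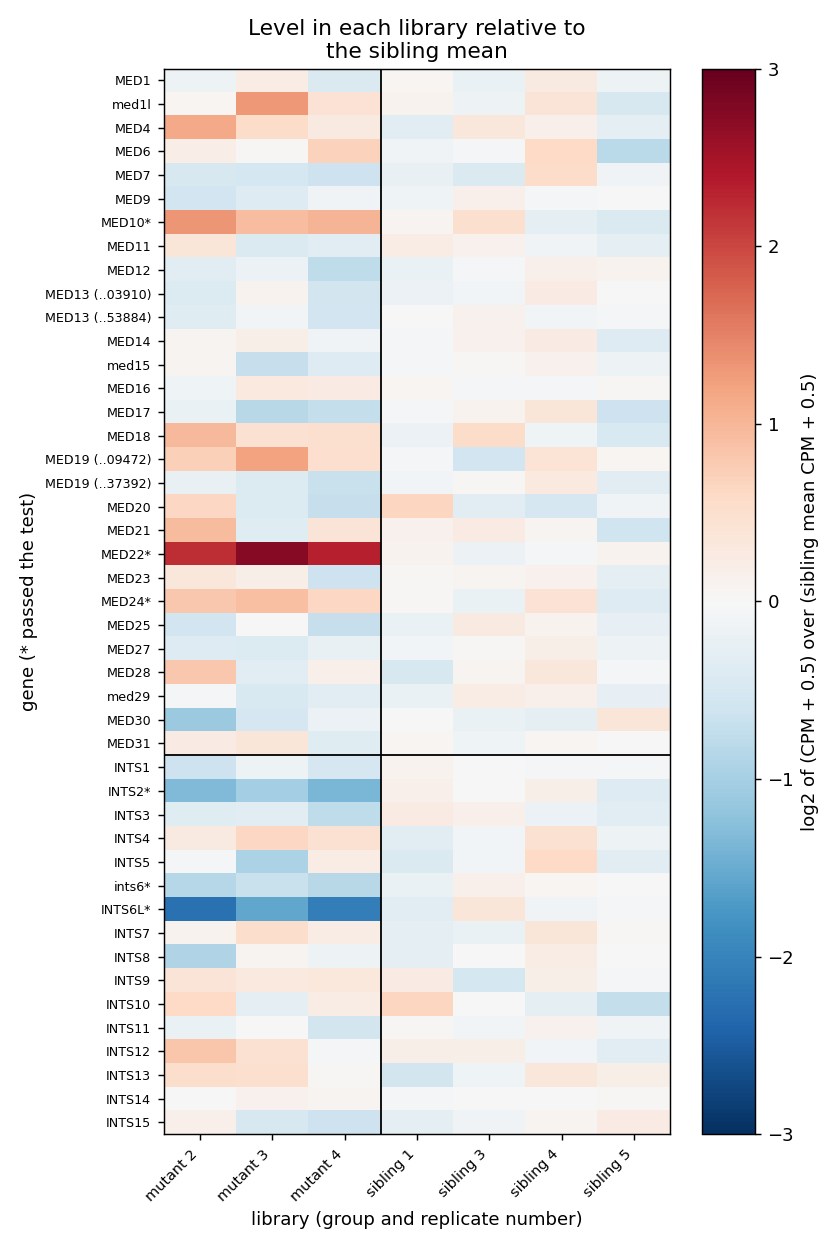
Level of each of the 45 genes in each library, as log2 of CPM plus 0.5 over the sibling mean plus 0.5, with Mediator above the horizontal line, Integrator below it, and mutants left of siblings; asterisks mark the genes that passed the test. MED22, MED10 and MED24 are above the sibling mean in 3 of 3 mutant libraries, and INTS2, ints6 and INTS6L are below it in 3 of 3.

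Among the 39 genes that did not pass, 26 belong to Mediator and 13 to Integrator. Their log2 fold changes ran from -0.58 to 0.90 in Mediator and from -0.48 to 0.47 in Integrator. For 15 of the 26 and 9 of the 13, the 95% interval of the fold lay wholly within 2-fold in either direction. For the other 11 and 4 genes a 2-fold change was not excluded. Among the latter were MED18, at 2.72 CPM in mutants and 1.54 CPM in siblings, and the better counted MED17. The groups did not overlap in CPM for 13 of the 45 genes (28.9%), against 27.5% of all tested genes. In Mediator 4 such genes were higher and 3 lower in mutants, and in Integrator 1 was higher and 5 were lower, where 14.6% and 12.8% of all tested genes were higher and lower without overlap. Levels were not divided by transcript length, for which no lengths were at hand, so no order of abundance between genes is given.

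Partners of the complexes were counted from lists of genes that act beside them. Over all tested genes 8.87% rose and 7.69% fell. The lists were chosen with earlier results of these data known. Their shares, here and in the next paragraphs, therefore describe the listed genes and do not test the lists against that background. In the PP2A list 2 of 5 tested IDs rose (40%) and 1 fell (20%). PPP2CA (ENSDARG00000030224, 1 of 2 tested IDs with that symbol), a catalytic subunit, had 16.7, 15.8 and 23.0 CPM in mutants and 38.6, 42.9, 36.8 and 39.5 CPM in siblings. The decrease was 2.13-fold (edgeR adjusted p = 0.00283). The other PPP2CA ID (ENSDARG00000053404) averaged 54.1 CPM in mutants and 68.4 CPM in siblings and did not pass (edgeR adjusted p = 0.448). A further catalytic gene, ppp2cb, rose 1.63-fold to 122.3 CPM in mutants, against 75.1 CPM in siblings (edgeR adjusted p = 0.013), but missed the threshold without mutant replicate 2 (0.0792) or sibling replicate 3 (0.0507); its other alternatives but the replicate block began at 0.00332. PPP2R1B (ENSDARG00000032430, 1 of 2 tested IDs), a scaffold subunit, rose 1.65-fold (edgeR adjusted p = 0.0193), but missed it without mutant replicate 2 or 3 or sibling replicate 3 or 4 (0.0608, 0.0988, 0.0816 and 0.0528), where the other alternatives but the replicate block began at 0.00834. The other PPP2R1B ID (ENSDARG00000007791) averaged 87.4 CPM in mutants and 87.7 CPM in siblings and did not pass (edgeR adjusted p = 0.988). In the list of SOSS partners, BRAT1 and WDR73, 0 of 5 tested genes passed and 0 had an unadjusted edgeR p under 0.05, and DESeq2 and limma-voom called 0.

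Factors that act in snRNA transcription, before Integrator cuts the product, included ice1 and snapc4, which had the largest fold changes of the tested partner genes. Of 7 genes of the snRNA-activating complex (SNAPc) and Oct-1, 2 rose (28.6%, against 8.87% of all tested genes) and 0 fell. The count of 0 held at an unadjusted p of 0.05 and with DESeq2 and limma-voom. The gene snapc4, for the SNAPc subunit that binds the snRNA promoter, had 485.1, 620.8 and 371.5 CPM in mutants, against 28.5, 24.8, 23.8 and 23.3 CPM in siblings. The rise was 19.6-fold (edgeR adjusted p = 1.88e-08). SNAPC3 rose 2.16-fold to 29.9 CPM in mutants, against 13.9 CPM in siblings (edgeR adjusted p = 0.00558). The other 5, SNAPC1, snapc1b, snapc2, SNAPC5 and POU2F1, did not pass. The little elongation complex, which works at the same genes, had ice1 at 459.3 CPM in mutants against 19.6 CPM in siblings and ICE2 at 28.8 CPM in mutants against 11.9 CPM in siblings, and both rose. Of 4 tested genes listed with that complex 2 rose (50%, against 8.87% of all tested genes), 1 fell (25%, against 7.69%) and ELL did not pass. The listed zc3h8 was not found, so the shares are of the list and not of the whole complex. ELL2 fell 1.66-fold, to 258.2 CPM in mutants against 428.4 CPM in siblings (edgeR adjusted p = 0.0478). That call was lost with DESeq2 size factors in edgeR, and without any 1 library but mutant replicate 3 (edgeR adjusted p up to 0.136).

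Of 11 tested IDs for RNA polymerase II subunits 6 rose (54.5%) and 1 fell (9.09%), against 8.87% and 7.69% of all tested genes. The listed polr2gl and polr2j were not found. The median of their log2 fold changes was 1.103. POLR2E (ENSDARG00000026183, 1 of 2 tested IDs) rose 7.35-fold, to 117.9 CPM in mutants against 16.0 CPM in siblings, and POLR2B, the second largest subunit, rose 3.95-fold, to 114.3 CPM in mutants against 28.9 CPM in siblings. POLR2A, whose product carries the tail that Mediator and Integrator bind, fell to 285.8, 251.8 and 208.5 CPM in mutants, against 660.4, 687.7, 585.4 and 480.7 CPM in siblings. It was 2.43-fold lower. The edgeR adjusted p values were 3.05e-07 for POLR2E, 1.78e-05 for POLR2B and 0.000706 for POLR2A. Leaving out mutant replicate 2, 4 polymerase genes rose.

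Of 5 genes for the pausing factors NELF and DSIF, which Integrator meets at promoters, 0 passed edgeR's test, DESeq2 or limma-voom. NELFB alone had an unadjusted edgeR p under 0.05, at 24.4 CPM in mutants and 15.3 CPM in siblings. Of 11 genes of the mRNA 3′ end machinery, which holds the paralogs of INTS9 and INTS11, CSTF3 alone (9.09%, near the background) rose, by 3.002-fold (edgeR adjusted p = 0.000115), and 0 fell, also at an unadjusted p of 0.05 and with DESeq2 and limma-voom. The paralogs CPSF2 and CPSF3 averaged 22.7 and 48.5 CPM in mutants and 22.4 and 43.7 CPM in siblings, and did not pass. Of 17 tested genes of the general transcription factors, through which Mediator acts, 2 rose and 2 fell (11.8% each way, near the background of 8.87% and 7.69%). GTF2E1, of TFIIE, rose 7.69-fold, and CCNH, the cyclin of TFIIH, rose 6.18-fold, while GTF2B, the gene of TFIIB, was 1.96-fold lower (edgeR adjusted p values 4.16e-06, 2.56e-06 and 0.00244).

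**Figure D4:**
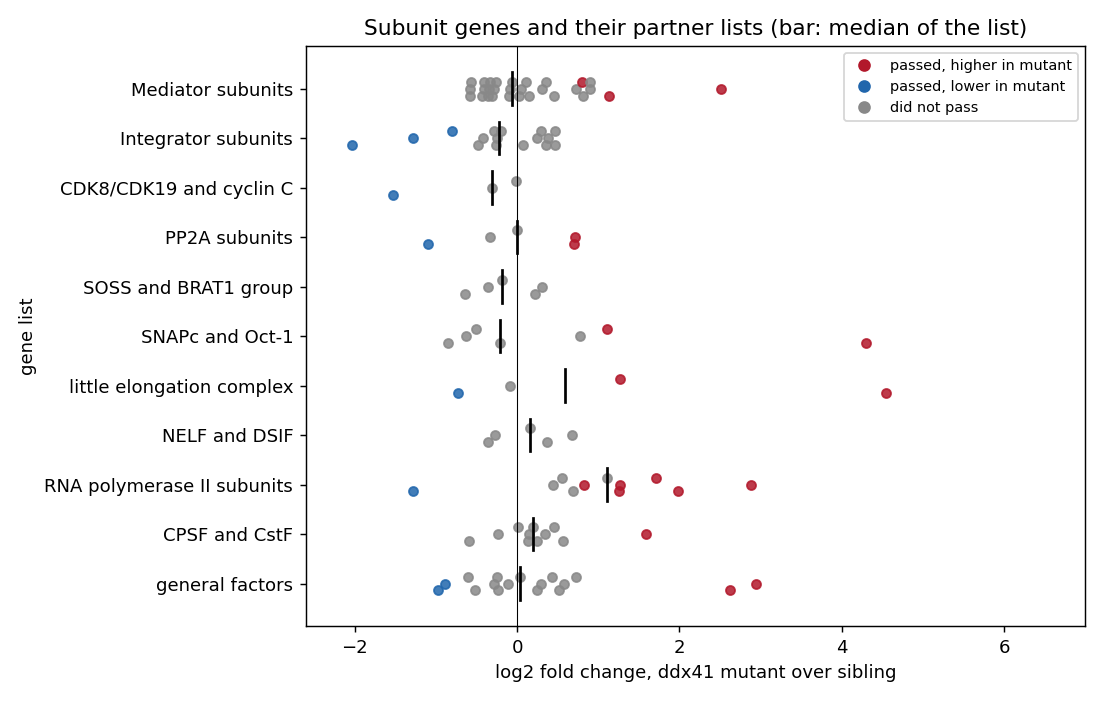
Log2 fold change of ddx41 mutants (n = 3) over siblings (n = 4) for each tested gene of Mediator, Integrator and 9 partner lists; each point is a gene, the black bar is the median of the list, and colour marks genes that passed the test. The medians of Mediator (-0.06) and Integrator (-0.22) lie near 0, that of the polymerase subunits is 1.103, and snapc4 and ice1 lie farthest to the right.

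The snRNAs, among them those that Integrator processes, lack a poly(A) tail and were barely sampled by this assay. The 108 table rows with a symbol of U1, U2, U4, U5, U6, U7 or U12 summed to 72, 53 and 127 counts in mutants and 76, 67, 54 and 45 counts in siblings. U6, with 41 of these rows, is not cut by Integrator, so the sums are not of Integrator products alone. Only 2 of the 108 rows, 1 of them of U6, had enough counts to be tested, and 0 passed edgeR's test. The ranges of the groups overlap, and a difference in snRNA level or processing could not be measured at this depth.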

How the data were processed

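The authors deposited raw counts per Ensembl gene, with 1 column per library; all 7 columns matched a sample title and 0 belonged to others. Per the submitters' processing notes, the build was GRCz10 and the tools included STAR 2.4.2a, Cufflinks 2.2.1, DESeq2, Picard and Trim Galore; their roles are not stated. Which program counted reads, and with which strand setting, is not given in the sources used here. Overlapping, antisense and paralogous genes may therefore share reads. Symbols came from a table that named 26269 of the 32105 IDs. Where a listed marker or partner symbol was not found, a final a or b was dropped, and every ID with the shorter symbol was taken. In the partner lists ppp2r1a, zc3h8, supt4h1, polr2gl, polr2j, cpsf7 and gtf2h2 were still not found.

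In R 4.3.3, edgeR 4.0.16 kept 18565 genes (filterByExpr by group, minimum count 10, total 15), scaled libraries by TMM and tested mutants against siblings by glmQLFit and glmQLFTest with Benjamini-Hochberg adjustment over all tested genes at 0.05. SEs are the log2 fold change over the root of F, and 95% intervals use the fit's degrees of freedom. The common biological coefficient of variation was 0.377. No 2 libraries of a group were alike within sampling noise (chi-square over its degrees of freedom 16.0 to 57.9). Alternatives used DESeq2 1.42.0, limma 3.58.1 (voom), other scalings and filters, a robust fit, leaving out each library, a replicate block, and IDs of 1 symbol summed.

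The rule named every member that passed, the 3 members with the smallest p of those that did not in each complex, those at the ends of the level range, and up to 3 called genes per partner list; crsp7, the other members with values and the uncalled partner genes were named after their values were seen. Members and lists were chosen with earlier results of these data known. On simulated data over 18565 genes for mutants against siblings, with changed genes drawn from those of at least 5 CPM, 43% of 100 genes changed 2-fold and 93% of 100 changed 4-fold were recovered, and 4.23% of 142 calls were false. The real data gave 3073 calls, so the adjusted threshold was stricter in the simulation. These shares therefore do not measure recovery in the real comparison.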

Additional observations from a re-analysis of the deposited data

How the results depend on the processing

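No member that missed the threshold passed it under any of the 17 alternatives, and no member that passed reversed its direction. MED22 and INTS6L passed under all 17. Without 1 library each, 2 to 3 Mediator genes were higher and 0 lower, 0 Integrator genes were higher and 2 to 3 lower, and 4 to 6 of the 45 members were called. Over all genes 1014 to 1471 were then higher and 874 to 1487 lower, and in the partner lists 11 to 16 were higher and 4 to 6 lower. The median log2 fold change ran from -0.18 to 0.10 in Mediator and from -0.28 to -0.083 in Integrator. With upper-quartile scaling the Integrator median was -0.26 and with total counts -0.12; these scalings shift the median of all genes by -0.04 and 0.08.

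Numbers 3 and 4 occur in both groups, but libraries of the same number did not deviate together (r = -0.02 and -0.19 across genes). The largest r were for mutant 2 with sibling 3 (0.22), mutant 3 with sibling 4 (0.25) and mutant 4 with sibling 5 (0.30). Whether such libraries share a clutch or batch was not tested, and no fit used those pairs. With the replicate block, which leaves 1 residual degree of freedom, 1 Mediator gene was higher (MED22), 1 Integrator gene was lower (INTS6L) and 2 members were called in all; 592 genes were higher and 431 lower, and in the partner lists 8 were higher and 1 lower. Depth limits the members with few counts, such as MED18, whose log2 fold change had a 95% interval of -0.36 to 1.98.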

Other observations

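The 45 genes were also checked for a sibling library far from the other 3. By Dixon's criterion at 95%, 0 of 45 genes had such a library; chance gives about 1 in 20 groups. Mutant groups of 3 were not checked.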
